A study of Mus musculus with 15 samples.

Results

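The genes Syk, Vav1, Prkcd, Card9, Bcl10, Malt1 and Ptpn6 act in the signalling of dectin-1, the receptor of dendritic cells (DCs) for beta-glucans. They are described here by name, 7 genes of 19937 measured. Each was read from the probe set whose annotation gives exactly that symbol, and all 7 had 1 such probe set. Expression was measured on Affymetrix Mouse Gene 1.0 ST arrays in D1 cells, a line of C57BL/6 splenic DCs kept in long-term culture with GM-CSF, so every result comes from 1 cell line. The 15 arrays form 5 groups of 3 arrays each: cells given curdlan, a particulate beta-glucan, at 10 µg/ml together with FK506 for 2 h or 4 h, cells given curdlan alone for 2 h or 4 h, and nontreated cells, which serve both times. FK506 inhibits calcineurin, the phosphatase whose action lets NFAT proteins move into the nucleus. FK506 was always given with curdlan, and FK506 alone was not analysed here. The labels call the arrays of a group biological replicates without saying that they came from separate cultures, so p-values measure the spread between these arrays, which may be in part technical.

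Dectin-1 (Clec7a) carries a single tyrosine motif in its tail, which Src family kinases phosphorylate and which then recruits the kinase SYK. SYK acts through VAV proteins and phospholipase C gamma, and protein kinase C delta (PRKCD) phosphorylates CARD9, which assembles with BCL10 and the paracaspase MALT1 into a complex that activates NF-kB. Calcium released by phospholipase C gamma feeds the calcineurin and NFAT branch that FK506 blocks. SHP-1, the product of Ptpn6, is a tyrosine phosphatase that dampens signalling of this kind in myeloid cells. The comparisons ask how the message levels of these proteins move once the receptor is engaged, and how they differ when calcineurin is blocked.

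Levels are log2 intensities normalised by RMA, so a difference of 1 is a 2-fold change and levels of different genes cannot be set against each other. Fold changes and p-values come from 1 limma fit over all 15 arrays, adjusted over all 19937 genes. A gene past both an adjusted p of 0.05 and a fold change of 1.5 is said to have risen or fallen, and a gene past the adjusted p alone is called higher or lower. Counts at an unadjusted p under 0.05 are given without their share over all genes. That share is at least the share past the adjusted p, which was 20.1% and 37.3% with curdlan at 2 h and 4 h. With FK506 over curdlan it was 7.57% and 11.7%. Such a count alone therefore does not show an excess over other genes. As a check of the cells, the DC genes Itgax, Cd74, H2-Ab1 and Flt3 had mean signals of 12.19, 12.83, 12.91 and 5.83 over the arrays, and the macrophage gene Adgre1 had 11.70. The lists of T, B, NK, neutrophil, mast cell, fibroblast and erythroid markers had median signals between 4.10 and 6.21. Signals of different probe sets depend on the probes and cannot be ranked as message levels, so these values do not settle which cell types were present. In a bulk sample, fewer cells expressing a gene and less message per cell cannot be told apart. Among the arrays, 2 were outlying within their groups, nontreated replicate 1 and curdlan 2 h replicate 3, so results that turn on them are given with and without them.

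The promoters of Card9, Bcl10 and Syk are shown because Card9 and Bcl10 gave FK506 differences of opposite sign and because a Syk window was the only one of the 8 found that held the NFAT core. The sequences are from RefSeq (GRCm38.p6), run from 250 bases before to 50 bases after the start site, are written 5′ to 3′ on the gene's strand, and carry the motif matches in capitals. RefSeq windows were found for 6 of the 7 genes, with 2 each for Syk and Prkcd, and Malt1 had none.
Card9, chr2:26360860-26361159, minus strand: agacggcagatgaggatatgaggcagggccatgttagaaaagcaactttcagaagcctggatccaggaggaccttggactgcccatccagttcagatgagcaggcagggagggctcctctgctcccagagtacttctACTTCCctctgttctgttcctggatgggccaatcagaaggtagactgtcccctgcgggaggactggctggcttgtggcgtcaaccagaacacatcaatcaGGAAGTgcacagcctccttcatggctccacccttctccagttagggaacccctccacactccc
Bcl10, chr3:145924012-145924311, plus strand: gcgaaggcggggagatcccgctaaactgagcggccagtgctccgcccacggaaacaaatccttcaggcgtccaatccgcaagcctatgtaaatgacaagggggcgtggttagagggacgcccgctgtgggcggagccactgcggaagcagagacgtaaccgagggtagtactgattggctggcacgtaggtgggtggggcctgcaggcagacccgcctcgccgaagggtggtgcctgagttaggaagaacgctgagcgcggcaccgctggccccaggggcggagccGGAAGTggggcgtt
Syk, second start site, chr13:52596632-52596931, plus strand: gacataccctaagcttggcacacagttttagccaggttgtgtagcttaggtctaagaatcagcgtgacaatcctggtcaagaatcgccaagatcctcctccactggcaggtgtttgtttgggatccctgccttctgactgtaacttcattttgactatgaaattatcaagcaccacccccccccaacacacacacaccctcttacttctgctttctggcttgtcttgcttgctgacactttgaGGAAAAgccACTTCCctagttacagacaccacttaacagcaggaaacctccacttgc
The Card9 window held the ETS core GGAAGT at both −113 and −13 from the start site, and the Bcl10 window held it at 37. The second Syk window held the NFAT core GGAAAA at −7 and the ETS core at 3. Across the other windows the ETS core was found in Vav1 at −9, in the first Prkcd window at 1 and in Ptpn6 at −190 and −101, whereas the first Syk and second Prkcd windows held none of the letters searched. Both strands were searched, and neither the AP-1 site TGAGTCA nor the shortened NF-kB site GGGANNTTC was found in any of the 8 windows. Of 32851 mouse promoter windows of this length, 23.8% hold GGAAGT, 23.4% hold GGAAAA, 5.20% hold TGAGTCA and 3.94% hold GGGANNTTC. GGAAGT and GGAAAA share their first bases, and a match is a run of letters and not a measured binding site.

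Among the 7 genes, Malt1, Syk and Card9 spanned the widest range of group means. The range was 1.02 for Malt1, 0.91 for Syk and 0.77 for Card9 on the log2 scale, followed by 0.64 for Bcl10, 0.50 for Ptpn6, 0.40 for Prkcd and 0.35 for Vav1. The median range over all genes was 0.25, and the share of genes with a smaller range lay between 70.8% for Vav1 and 96.1% for Malt1. The SD between the 3 arrays of a group stayed between 0.0075 and 0.106 for these genes. All 7 had group mean signals between 9.51 and 12.03, above the upper quartile of gene means at 9.115. The SE of their fold changes between groups ran from 0.041 to 0.060, beside a median of 0.077 over all genes. The shares over all genes, here and below, include genes of low signal, so they are a description and were not tested.

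**Figure D1:**
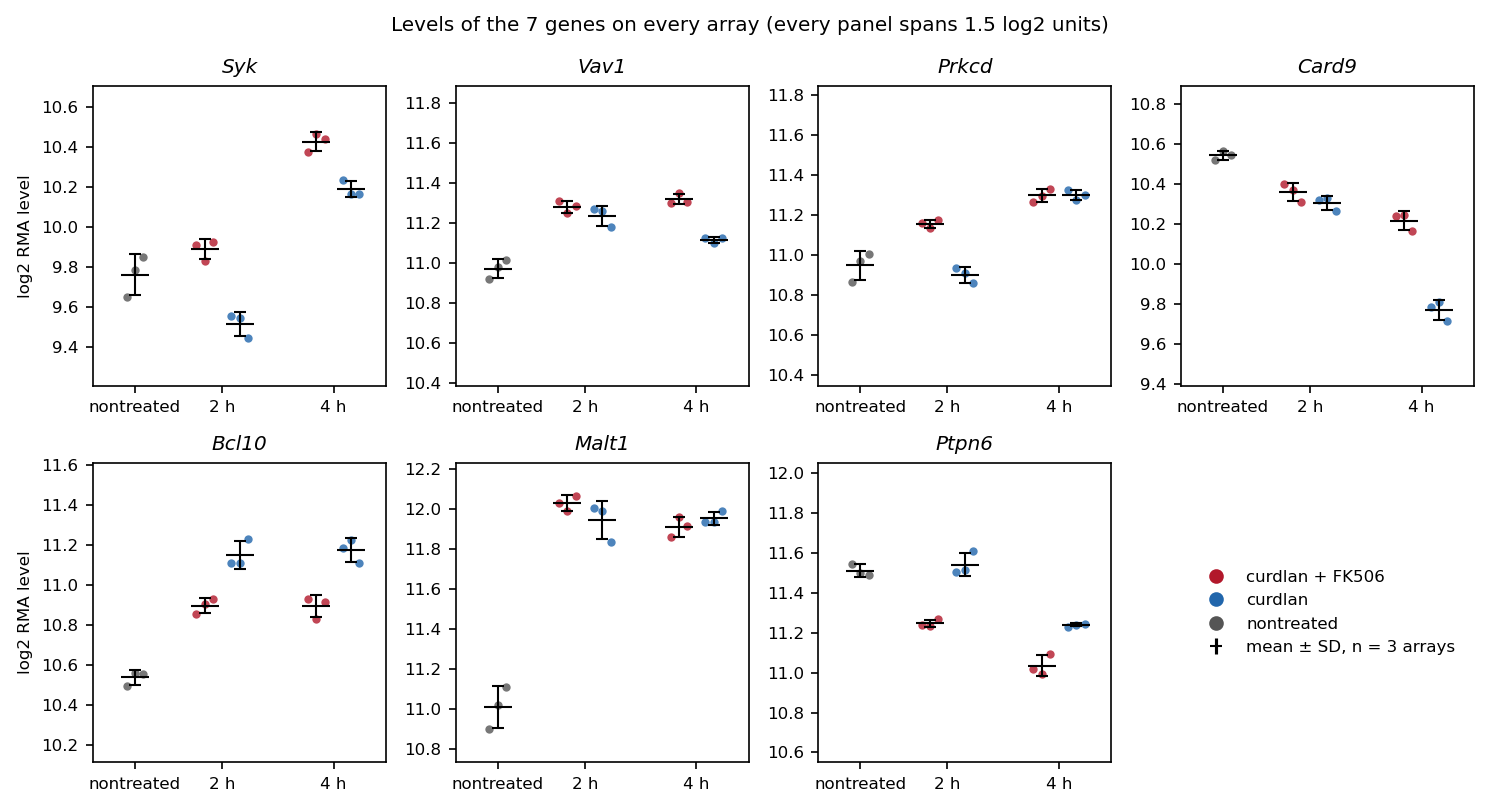
Log2 RMA level of each of the 7 genes on every array (points), with the mean and SD of each group of 3 arrays (bars), in nontreated cells and after 2 h and 4 h of curdlan with FK506 (red) or curdlan alone (blue). Malt1 sat above all nontreated arrays in every treated group, Card9 was lowest after 4 h of curdlan alone, and Ptpn6 was lowest after 4 h of curdlan with FK506.

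Curdlan raised the message of both partners of CARD9 while Card9 itself fell. Within 2 h of curdlan, 2 of the 7 genes rose and 0 fell (5 of the 7 had an unadjusted p under 0.05 in limma), where 3.6% of all genes were called in either direction, and 5 of the 7 passed the adjusted p alone, against 20.1% of all genes. At 4 h, 3 of the 7 were called, with 2 up and 1 down, against 9.2% of all genes, and 7 of the 7 passed the adjusted p alone, against 37.3%. The median fold change of the 7 was 0.03 at 2 h and 0.35 at 4 h on the log2 scale, beside medians of −0.04 and −0.12 over all genes. The same 3 nontreated arrays serve both times, so the 2 sets of values share their control. The 4 h median over all genes moves from −0.12 to −0.01 when every array is centred on its median, and the 4 h values stand against that shift.

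Malt1 encodes the paracaspase of the complex, which both scaffolds signalling and cleaves regulators of NF-kB and of messenger RNA decay. It was at 12.01, 11.99 and 11.84 after 2 h of curdlan and at 11.94, 11.94 and 11.99 after 4 h, against 10.90, 11.02 and 11.11 in nontreated cells. Every curdlan array lay above every nontreated array. The rise was 0.94 ± 0.06 at 2 h (SE, n = 3 arrays each; adjusted p = 6.37e-08) and 0.95 ± 0.06 at 4 h (adjusted p = 2.17e-08), which is 1.91-fold and 1.93-fold. The curdlan 4 h and 2 h arrays overlapped, with a difference of 0.01 (95% interval −0.12 to 0.14).

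Bcl10 encodes the adaptor that bridges CARD9 and MALT1 and forms filaments with them. It was at 11.11, 11.11 and 11.23 after 2 h and at 11.19, 11.23 and 11.11 after 4 h of curdlan, against 10.50, 10.56 and 10.56 in nontreated cells. The groups did not overlap, and the rise was 1.53-fold at 2 h (0.61 ± 0.05, adjusted p = 6.54e-07) and 1.55-fold at 4 h (0.64 ± 0.05, adjusted p = 1.65e-07). These values lie just past the 1.5-fold limit, and under repeated quantile normalization Bcl10 was at 0.57 at both times, which is under it. Without curdlan 2 h replicate 3, the highest Bcl10 array of its group, the 2 h value was 0.57 with an adjusted p of 2.81e-06, which is under 1.5-fold, and without both outlying arrays it was 0.55. The adjusted p stayed below the threshold in each of these.

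Card9 encodes the caspase recruitment adaptor that links SYK to BCL10 and MALT1. Its level was 10.32, 10.33 and 10.26 after 2 h and 9.79, 9.81 and 9.71 after 4 h of curdlan, against 10.52, 10.56 and 10.55 in nontreated cells. The levels stepped down without overlap at each time, and of the 7 genes Card9 alone fell past both limits. Its fall at 4 h was −0.77 ± 0.04 on the log2 scale (adjusted p = 5.79e-09), or 1.71-fold, while the 2 h level was lower by less than 1.5-fold (−0.24 ± 0.04, adjusted p = 0.00101) and did not pass after every array was centred on its median (adjusted p = 0.112).

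Syk, the kinase at the head of the route, was below nontreated cells at 2 h and above them at 4 h. It was at 9.55, 9.54 and 9.44 after 2 h and at 10.23, 10.16 and 10.16 after 4 h of curdlan, against 9.65, 9.78 and 9.85 in nontreated cells. The 2 h arrays all lay below the nontreated arrays and the 4 h arrays all lay above them. Syk was lower at 2 h (−0.25 ± 0.06, adjusted p = 0.00512) and higher at 4 h (0.43 ± 0.06, adjusted p = 3.06e-05), both under 1.5-fold. The 2 h value did not pass after centring (−0.21, adjusted p = 0.206) or in the fit on the 2 groups alone (adjusted p = 0.111). Between the times it rose, with 4 h over 2 h at 1.60-fold (0.67 ± 0.06, adjusted p = 8.23e-07).

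The differences of the other kinase-side genes were under 1.5-fold. Vav1, an exchange factor that SYK phosphorylates, was at 11.27, 11.26 and 11.18 after 2 h and at 11.12, 11.10 and 11.12 after 4 h, against 10.92, 10.98 and 11.01 in nontreated cells. It was higher at both times without overlap, by 0.26 ± 0.04 at 2 h (adjusted p = 0.000306) and 0.14 ± 0.04 at 4 h (adjusted p = 0.0134). The 4 h value did not pass under repeated quantile normalization (0.07, adjusted p = 0.135) or in the fit on the 2 groups alone (adjusted p = 0.0851), and was 0.25 after centring (adjusted p = 0.0272). Prkcd, the kinase of CARD9, was at 10.93, 10.91 and 10.86 after 2 h, inside the range of nontreated arrays at 10.86, 10.97 and 11.00, with a difference of −0.05 (95% interval −0.14 to 0.05). At 4 h it stood at 11.32, 11.27 and 11.30, above every nontreated array and 0.35 ± 0.04 higher (adjusted p = 1.99e-05).

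Ptpn6 was the only phosphatase among the 7. Its level was 11.50, 11.51 and 11.61 after 2 h of curdlan, overlapping 11.55, 11.50 and 11.49 in nontreated cells, with a difference of 0.03 (95% interval −0.06 to 0.12). After 4 h it stood at 11.23, 11.24 and 11.24, below every nontreated array, and was lower by less than 1.5-fold (−0.27 ± 0.04, adjusted p = 0.000133).

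Between 4 h and 2 h of curdlan alone, Syk rose, Prkcd was higher, and Card9, Ptpn6 and Vav1 were lower. In the comparison of these times 1 of the 7 genes was called against 4.09% of all genes, and 5 passed the adjusted p alone against 26.0% of all genes. Prkcd was higher at 4 h by 0.40 ± 0.04 (adjusted p = 1.23e-05), while Card9 was lower by 1.45-fold (−0.53 ± 0.04, adjusted p = 6.23e-07) and Ptpn6 was lower (−0.30 ± 0.04, adjusted p = 9.79e-05). Vav1 was lower by 0.12 on the log2 scale (−0.12 ± 0.04), with an adjusted p of 0.0475. After every array was centred on its median, the Vav1 value was −0.05 (adjusted p = 0.686). It also did not pass in the fit on the 2 groups alone (adjusted p = 0.122) or after leaving out any of the 6 arrays but curdlan 2 h replicate 3 (0.0934 to 0.134). Bcl10 differed by 0.02 (95% interval −0.08 to 0.13).

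The FK506 differences of the 7 genes were under 1.5-fold at either time and ran in different directions. With FK506, 0 of the 7 were called at 2 h, against 1.12% of all genes, and 0 at 4 h, against 1.75%, while 4 at 2 h and 5 at 4 h had an unadjusted p under 0.05 in limma. Past the adjusted p alone were 4 of the 7 at 2 h, with 2 higher and 2 lower, against 7.57% of all genes, and 5 of the 7 at 4 h, with 3 higher and 2 lower, against 11.7%. Syk was higher with FK506 at both times, Bcl10 and Ptpn6 were lower at both times, Prkcd was higher at 2 h, and Vav1 and Card9 were higher at 4 h. After every array was centred on its median, Bcl10 at 2 h (adjusted p = 0.132) and Syk and Vav1 at 4 h (adjusted p = 0.315 and 0.326) no longer passed. Bcl10 at 2 h also did not pass in the fit on the 2 groups alone (adjusted p = 0.0516).

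Card9 was higher with FK506 at 4 h. It was at 10.24, 10.25 and 10.16 with curdlan and FK506, against 9.79, 9.81 and 9.71 with curdlan alone. No array overlapped, and the level was 1.36-fold higher with FK506 (0.45 ± 0.04, adjusted p = 9.05e-06). After centring, the Card9 difference was 0.41 at 4 h and the Syk difference at 2 h was 0.44, so the order of these genes by size depends on the scaling. Against nontreated cells, the 4 h level with FK506 was lower by 0.33 on the log2 scale (−0.33 ± 0.04, adjusted p = 4.60e-05), where curdlan alone had given −0.77. At 2 h the Card9 arrays were at 10.40, 10.37 and 10.31 with FK506 and at 10.32, 10.33 and 10.26 with curdlan alone, and the groups overlapped, with a difference of 0.05 (95% interval −0.04 to 0.15).

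Bcl10 differed in the opposite direction. It was at 10.86, 10.90 and 10.93 at 2 h and at 10.93, 10.83 and 10.92 at 4 h with curdlan and FK506, each group below the curdlan arrays of its time. The level was lower by 1.19-fold at 2 h (−0.25 ± 0.05, adjusted p = 0.00502) and by 1.22-fold at 4 h (−0.28 ± 0.05, adjusted p = 0.00158). With FK506, Bcl10 stayed above nontreated cells by 0.36 ± 0.05 at both times, under 1.5-fold. Malt1, the third gene of the complex, was at 12.03, 11.99 and 12.07 at 2 h and at 11.86, 11.96 and 11.92 at 4 h with FK506, overlapping the curdlan arrays at both times. Its difference was 0.09 (95% interval −0.04 to 0.22) at 2 h and −0.04 (95% interval −0.17 to 0.09) at 4 h.

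Syk was higher with FK506 at both times. Its arrays were at 9.91, 9.83 and 9.93 at 2 h, against 9.55, 9.54 and 9.44 with curdlan alone, and at 10.37, 10.46 and 10.44 at 4 h, against 10.23, 10.16 and 10.16. The groups did not overlap, and the difference was 0.38 ± 0.06 at 2 h (adjusted p = 0.000595) and 0.24 ± 0.06 at 4 h (adjusted p = 0.0116). The 4 h value did not pass without curdlan 4 h replicate 3 (0.23, adjusted p = 0.0508) or without curdlan with FK506 4 h replicate 2 (0.22, adjusted p = 0.0541). At 2 h the FK506 arrays overlapped the nontreated arrays, where curdlan alone lay below them, with 0.13 over nontreated cells (95% interval 0.01 to 0.25, adjusted p = 0.139). The 4 h level with FK506 was the highest of the 5 groups, 1.58-fold over nontreated cells (0.66 ± 0.06, adjusted p = 6.36e-07).

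Prkcd passed the adjusted p at 2 h and Vav1 at 4 h. Prkcd was at 11.16, 11.13 and 11.17 at 2 h with FK506, above 10.93, 10.91 and 10.86 with curdlan alone, a difference of 0.25 ± 0.04 (adjusted p = 0.00214). At 4 h its arrays overlapped, at 11.26, 11.30 and 11.33 with FK506 and at 11.32, 11.27 and 11.30 without, and the difference was −0.00 (95% interval −0.10 to 0.09). Vav1 was at 11.31, 11.25 and 11.28 at 2 h with FK506, overlapping the curdlan arrays, and at 11.30, 11.35 and 11.31 at 4 h, above 11.12, 11.10 and 11.12 with curdlan alone. The Vav1 difference was 0.05 (95% interval −0.04 to 0.13) at 2 h and 0.20 ± 0.04 at 4 h (adjusted p = 0.00434), and the Vav1 effects at the times did not differ past the threshold (0.16, adjusted p = 0.175).

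Ptpn6 was lower with FK506 at both times. It was at 11.24, 11.23 and 11.27 at 2 h with FK506, against 11.50, 11.51 and 11.61 with curdlan alone, and at 11.02, 10.99 and 11.09 at 4 h, against 11.23, 11.24 and 11.24. Neither time overlapped, and the difference was −0.29 ± 0.04 at 2 h (adjusted p = 0.000439) and −0.20 ± 0.04 at 4 h (adjusted p = 0.00506). The 2 h arrays with FK506 overlapped the curdlan 4 h arrays, a pair of groups that was not tested.

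**Figure D2:**
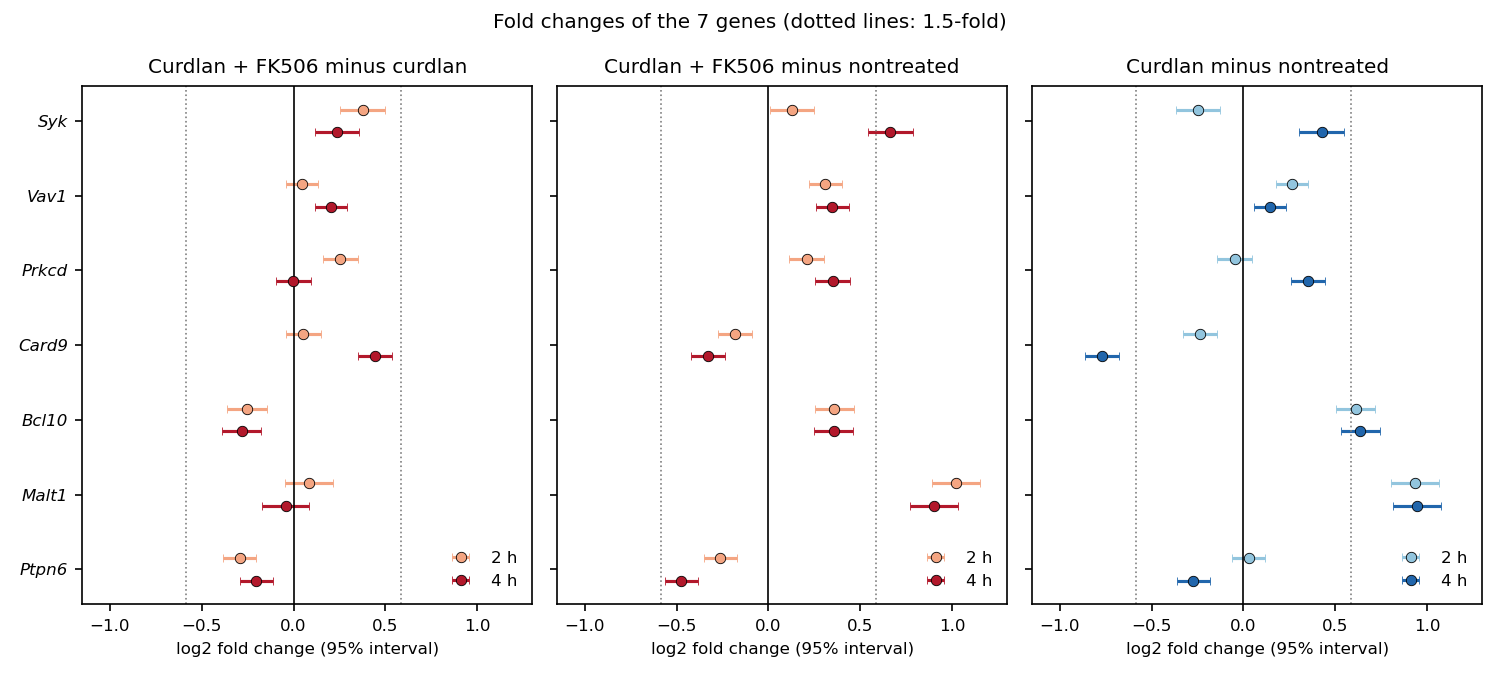
Log2 fold change (points) and 95% interval (bars) of the 7 genes at 2 h and 4 h for curdlan with FK506 over curdlan alone, curdlan with FK506 over nontreated cells, and curdlan alone over nontreated cells, with dotted lines at 1.5-fold. All FK506 differences lie inside the dotted lines, with Card9 at 0.45 at 4 h, while Malt1 lies beyond them at both times over nontreated cells with and without FK506.

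Each FK506 group was also set against the same nontreated arrays. At 2 h, 1 of the 7 genes was called, Malt1 at 2.03-fold (1.02 ± 0.06, adjusted p = 4.28e-08), against 2.35% of all genes, and 6 passed the adjusted p alone against 17.6%. After centring 4 of the 7 passed, without Card9 (adjusted p = 0.570) and Ptpn6, and 4 passed in the fit on the 2 groups alone, without Prkcd (0.0777) and Card9 (0.0789). At 4 h, 2 of the 7 were called, Malt1 at 1.87-fold (0.90 ± 0.06, adjusted p = 6.28e-08) and Syk, against 5.38% of all genes, and 7 passed the adjusted p alone against 26.0%. Ptpn6 was lower than in nontreated cells (−0.26 ± 0.04 at 2 h and −0.48 ± 0.04 at 4 h), and the 2 h value did not pass after centring (−0.15, adjusted p = 0.0858). Between 4 h and 2 h with FK506, 0 of the 7 were called against 1.69% of all genes, and 4 passed the adjusted p alone against 14.0%. Of these 4, Syk was higher by 0.54 ± 0.06 (adjusted p = 1.50e-05) and Ptpn6 was lower (−0.21 ± 0.04, adjusted p = 0.00298), whereas Prkcd at 0.14 and Card9 at −0.14 had adjusted p values of 0.0481 and 0.0409. Neither stayed past the threshold when single arrays were left out, with Prkcd at 0.0677 to 0.186 over all 6 arrays and Card9 at 0.0640 to 0.192 over all but curdlan with FK506 2 h replicate 3. Malt1 was at −0.12 in this comparison with an adjusted p of 0.301. Neither outlying array belongs to these groups, and without both of them Malt1 stayed at −0.12, with an adjusted p of 0.0459.

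A further test asked if the FK506 effect at 4 h was unlike that at 2 h. By this test 0 of the 7 genes were called, against 1.23% of all genes, 3 had an unadjusted p under 0.05, and 2 passed the adjusted p alone against 4.37%. For Card9 the effect was larger at 4 h by 0.39 ± 0.06 (adjusted p = 0.00189), and the value kept its adjusted p below the threshold when any single array was left out but not when every array was centred on its median (0.29, adjusted p = 0.205). For Prkcd the effect was smaller at 4 h (−0.26 ± 0.06, adjusted p = 0.0333), with adjusted p values above the threshold after centring (0.145), with the replicate number as a block (0.0665) and after leaving out any of 11 of the 12 arrays in the comparison (0.0538 to 0.0949). The other 5 genes did not pass, with values between −0.14 for Syk and 0.16 for Vav1. Vav1 passed without both outlying arrays (0.19, adjusted p = 0.0265) and under repeated quantile normalization (0.20, adjusted p = 0.0330). It also passed with array weights (0.18, adjusted p = 0.00449), whose estimation stopped before convergence. After centring, Vav1 was at 0.06 with an adjusted p of 0.812.

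Across the 5 groups the order of levels differed from gene to gene. From low to high, Card9 ran from curdlan 4 h through curdlan with FK506 4 h, curdlan 2 h and curdlan with FK506 2 h to nontreated cells, and only the 2 h pair overlapped. Bcl10 formed 3 levels, with nontreated cells lowest, both FK506 groups in the middle and both curdlan groups on top. For Malt1 all 4 treated groups overlapped in neighbouring pairs above the nontreated arrays. Ptpn6 also formed 3 levels, with curdlan with FK506 4 h lowest, curdlan 4 h and curdlan with FK506 2 h overlapping in the middle, and nontreated cells and curdlan 2 h overlapping on top.

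Genes with the most similar profile were sought over all 19937 genes by Pearson's r over the 15 arrays, which share the same 5 groups, so r reads group differences and is given as a description. Malt1 was most like Tnfaip3 (r = 0.991), which encodes the NF-kB inhibitor A20, then Hivep1 (0.991) and Plaur (0.989), the urokinase receptor. Bcl10 was most like Traf6 (0.979), an ubiquitin ligase of the NF-kB route, then Usp31 (0.977) and Plk3 (0.973). The group means of Traf6 were 10.11 and 10.18 with FK506 at 2 h and 4 h and 10.52 and 10.53 with curdlan alone, against 9.71 in nontreated cells, with the FK506 means between the other two as for Bcl10.

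Card9 was most like Nceh1 (0.983), a cholesterol ester hydrolase, then Arhgap19 (0.979) and Haao (0.978). Prkcd was most like Pdcd1lg2 (0.985), which encodes the ligand PD-L2, then 4632427E13Rik (0.978) and Dennd11 (0.972). Syk was most like Txlnb (0.971), Slc6a6 (0.967), the taurine transporter, and Il10rb (0.966), a chain of the interleukin 10 receptor. Ptpn6 was most like Lrwd1 (0.989), Lbh (0.974) and Slamf9 (0.974), and Vav1 was most like 2510009E07Rik (0.948), D17H6S56E-5 (0.923) and Zfp36 (0.906). Among the 7 genes themselves, Syk and Prkcd ran together (0.935) and both ran against Ptpn6 (−0.924 and −0.915), while Card9 ran against Bcl10 (−0.736) and Malt1 ran with Vav1 (0.837) and Bcl10 (0.803).

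**Figure D3:**
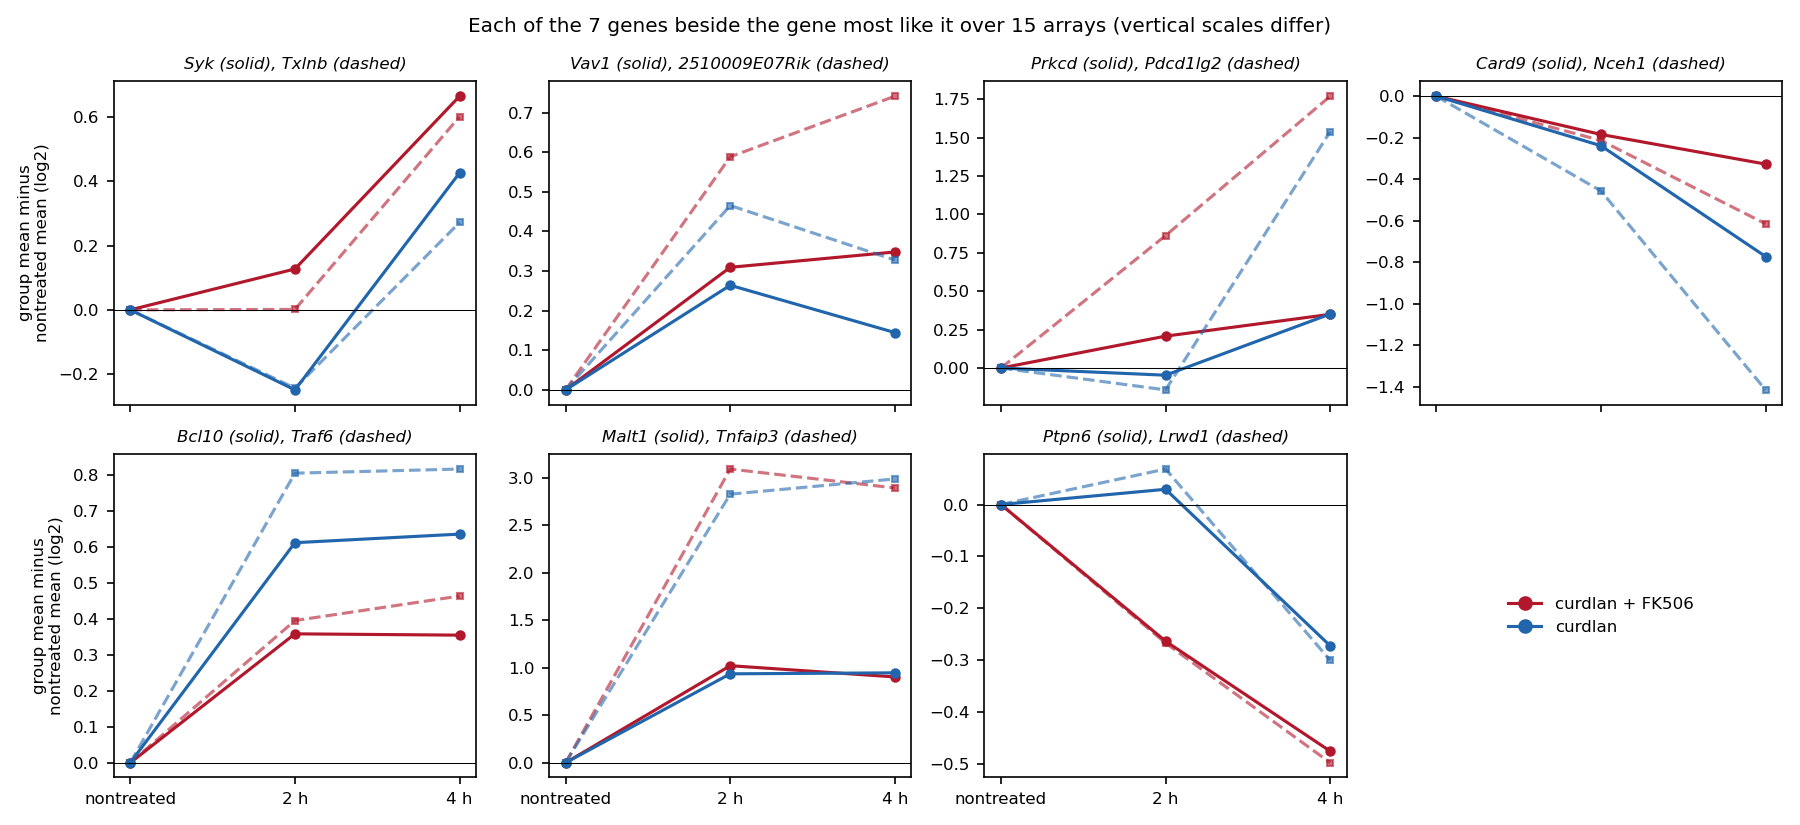
Group mean minus the nontreated mean on the log2 scale for each of the 7 genes (solid lines) and the gene most like it over 15 arrays (dashed lines), in nontreated cells and after 2 h and 4 h of curdlan with FK506 (red) or curdlan alone (blue). The FK506 means of both Traf6 and Bcl10 lie between nontreated cells and curdlan alone, and Tnfaip3 moves with Malt1 over a wider range.

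Around the 7 genes, 80 of 85 further genes of the route were measured. Curdlan called 10 of the 80 at 2 h (12.5%, 8 up and 2 down) and 25 at 4 h (31.25%, 18 up and 7 down), beside 3.6% and 9.2% of all genes. FK506 called 4 at 2 h (5.0%, 2 up and 2 down) and 6 at 4 h (7.5%, 1 up and 5 down), beside 1.12% and 1.75% of all genes. The median fold change over the 80 was 0.07 and 0.09 with curdlan and 0.02 and −0.04 with FK506, on the log2 scale. The lists were chosen with earlier results of these data known, and the shares over all genes include genes of low signal. The shares are therefore a description and were not tested.

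At the receptor level, curdlan raised 3 of 10 measured receptors and signalling adaptors at 2 h and 4 at 4 h, and 0 fell. Clec4e, which encodes the C-type lectin Mincle, rose by 1.56 ± 0.10 at 2 h and 1.97 ± 0.10 at 4 h (adjusted p = 9.43e-08 and 3.38e-09). Tlr2, a receptor of microbial lipopeptides, rose by 1.06 and 1.33, Clec4d rose by 0.67 and 1.35, and the scavenger receptor Cd36 rose by 1.62 at 4 h. With FK506, Clec4e fell by 0.70 on the log2 scale at 2 h and by 0.72 at 4 h, and Cd36 fell by 0.64 at 4 h. Dectin-1 itself, Clec7a, averaged 10.48 and 10.56 with FK506 at 2 h and 4 h and 10.39 and 10.61 with curdlan alone, against 10.41 in nontreated cells, and was called in none of these comparisons, with curdlan 4 h higher by 0.20 (adjusted p = 0.00629).

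Among the kinases that act on the receptor tail and the phosphatases that control them, 8 of 10 genes were measured and 0 were called at 2 h of curdlan (5 at an unadjusted p under 0.05), where Src was at 0.37. At 4 h Src rose by 0.79 ± 0.04 and the phosphatase Ptprj by 0.81 ± 0.05, whereas Csk, the kinase that holds Src family members inactive, fell (−0.87 ± 0.04, adjusted p = 3.65e-10). With FK506, Src rose by 0.71 ± 0.04 at 2 h (adjusted p = 1.81e-07), and 0 of the 8 were called at 4 h (5 at an unadjusted p under 0.05).

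Of 15 measured scaffolds and effectors beside SYK, 0 were called at 2 h of curdlan (9 at an unadjusted p under 0.05) and 3 at 4 h. The scaffold Blnk rose by 1.23 ± 0.08 and the PI3-kinase regulatory subunit Pik3r1 by 1.09 ± 0.08, while the catalytic subunit Pik3cd fell (−0.76 ± 0.04). With FK506, 0 were called at 2 h (9 at an unadjusted p under 0.05), and Blnk alone fell at 4 h (−0.81 ± 0.08, adjusted p = 1.28e-05). The Vav1 relatives Vav2 and Vav3 were at 0.27 and −0.43 at 4 h of curdlan, both under 1.5-fold.

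Of 7 further protein kinase C isoforms, curdlan called 0 at 2 h (3 at an unadjusted p under 0.05) and 2 at 4 h, where Prkch rose by 1.22 ± 0.09 and Prkcq fell (−0.91 ± 0.08). With FK506, 0 were called at 2 h (1 at an unadjusted p under 0.05), and at 4 h Prkci and Prkch fell, at −0.70 ± 0.04 and −0.60 ± 0.09 on the log2 scale (adjusted p = 5.49e-08 and 0.000591), where Prkcd was at −0.00.

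Among CARD family members and partners of the complex, 15 of 17 were measured. Traf6 rose by 0.81 ± 0.05 at 2 h and 0.82 ± 0.05 at 4 h of curdlan, Traf2 rose by 0.69 ± 0.07 at 4 h, and Rubcn, whose product binds CARD9 and ends its signalling, fell at both times (−0.61 and −0.69). FK506 called 0 of the 15 at either time (4 at 2 h and 7 at 4 h had an unadjusted p under 0.05), and Traf6 was lower with FK506 at both (−0.41 and −0.35, adjusted p = 0.000196 and 0.000481).

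Genes listed from general knowledge as MALT1 protease substrates gave a median above 0 under curdlan. Cleavage was not measured, and whether MALT1 cleaves each listed protein in these cells, Map3k14 included, was not tested. Of 9 measured, 4 rose at 2 h and 6 at 4 h, with 0 falls and list medians of 0.43 and 0.91. Tnfaip3 rose by 2.83 ± 0.06 and 2.99 ± 0.06, the RNase gene Zc3h12a by 2.08 and 1.73, Relb by 0.87 and 1.28, and Map3k14, the kinase NIK, by 0.72 and 1.68. FK506 called 0 of the 9 at either time (5 at 2 h and 2 at 4 h had an unadjusted p under 0.05), with Map3k14 at −0.37 and Cyld at 0.28 at 2 h and Relb at −0.18 and Zc3h12a at −0.15 at 4 h.

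Inhibitory genes moved both ways. Of 16 measured, curdlan called 1 at 2 h and 4 at 4 h. Pag1, whose product anchors Csk at the membrane, fell at both times (−0.72 and −1.27), and at 4 h the adaptor Dok2 and the lipid phosphatase gene Inpp5d, which encodes SHIP-1, also fell (−1.12 and −0.88) while Ptpn2 rose by 0.71. With FK506 at 2 h, Ptpn22 fell (−1.16 ± 0.08, adjusted p = 4.45e-07) and Pag1 rose by 0.96 ± 0.06, and at 4 h the inhibitory receptor Cd300a rose by 0.69 ± 0.05. Ptpn11, which encodes SHP-2, the nearest relative of SHP-1, was at 0.01 and −0.05 with FK506 at 2 h and 4 h, where Ptpn6 was lower at both.

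**Figure D4:**
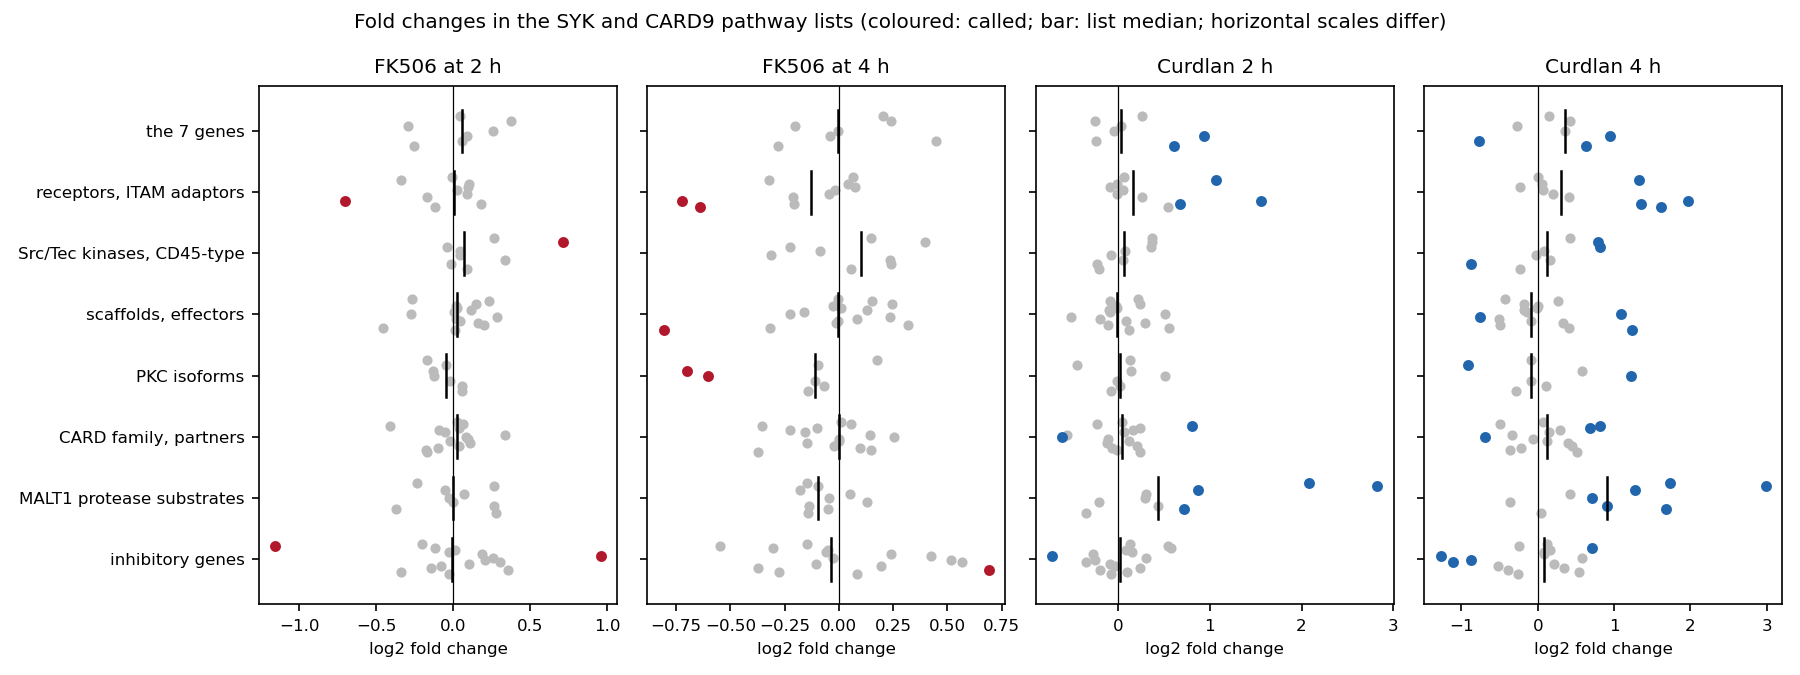
Log2 fold changes of the 7 genes and of the 80 further genes of the route in 7 lists, for curdlan with FK506 over curdlan alone (red where called) and curdlan over nontreated cells (blue where called), with grey points for genes not called and a bar at each list's median. The genes listed as MALT1 substrates have the highest list median under curdlan at 4 h, at 0.91, and 0 of the 7 genes are called with FK506.

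Several macrophage, DC and other-cell markers differed between the same groups, and their part in these results was not tested. With FK506 the macrophage gene Mertk fell at 2 h and 4 h (−1.53 and −2.20), Cd14 fell at 4 h (−0.90), and Nkg7 (−0.61 and −1.12) and Lat (−0.92 at 4 h) also fell. Under curdlan the macrophage gene Cd14 rose by 0.71 at 2 h and 1.12 at 4 h. Of 10 DC markers, 1 rose at 2 h, Cd80 by 0.91, and 3 rose at 4 h, Cd80 by 1.11, Ccr7 by 1.08 and Cd86 by 0.65. Under 4 h of curdlan, Lat, Nkg7 and Cxcr2 rose by 1.11, 0.86 and 0.97, with 0 other calls among the T, B, NK, neutrophil, mast cell, fibroblast and erythroid markers in the curdlan comparisons. The mean level of the 6 measured macrophage markers lay at 9.82 to 9.89 with FK506 and 10.08 to 10.20 with curdlan alone at 2 h. At 4 h it lay at 9.61 to 9.66 with FK506 and 10.06 to 10.11 with curdlan alone, and in nontreated cells at 9.86 to 10.09. Single macrophage markers went both ways with FK506, with median log2 fold changes of −0.03 at 2 h and −0.06 at 4 h. At both times the means of Csf1r and Cd68 were higher with FK506, while those of Mertk, Cd14, Adgre1 and Fcgr1 were lower. Of 9 housekeeping genes, 0 were called with curdlan (2 at 2 h and 5 at 4 h had an unadjusted p under 0.05) or with FK506 (0 at 2 h and 1 at 4 h).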

How the data were processed

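The deposited values are log2 intensities, which the authors made with the affy package in R 2.15.2 by RMA, a method that corrects background, applies quantile normalization and summarises probes. The annotation gave 1 symbol to 21640 of 34760 probe sets, several to 1321 and none to 11799. Probe sets with 1 symbol were used, and the one with the highest mean was kept for the 954 genes with several, which left 19937 genes, all tested without a filter on low values. In limma 3.58.1 (R 4.3.3), all 15 arrays entered 1 linear model of the 5 group means (10 residual degrees of freedom), with empirical Bayes moderation, two-sided tests and Benjamini-Hochberg adjustment over all genes. FK506 effects are curdlan with FK506 minus curdlan. Calls needed an adjusted p under 0.05 and a fold change of at least 1.5. Quantile normalization hides a shift of all genes at once, and the number of arrays limits the precision. The fit was tested on simulated data.

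All 7 genes were tested in every comparison. The text names up to 4 called genes of each pathway list by size, and up to 2 genes in some lists where none was called. The 3 most similar genes are named for each of the 7. The 7 genes and the lists were chosen with earlier results of these data known. The genome build of the array annotation is not given in the sources used here, so no coordinates of probes are given. Alternatives were 2 further normalizations, array weights, trended robust moderation, a filter on low genes, no fold limit, averaged probe sets, a fit on the compared groups, a replicate block, and leaving out arrays.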

Additional observations from a re-analysis of the deposited data

Results flagged for a closer look

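A direct test in limma of the FK506 effect at 4 h against that at 2 h passed the adjusted p for 2 of the 7 genes, where 4.37% of all genes passed, and for 0 of the 7 after every array was centred on its median. For Card9, curdlan with FK506 over curdlan alone gave 0.45 at 4 h and 0.05 at 2 h on the log2 scale, a difference of 0.39 (95% interval 0.26 to 0.52, adjusted p = 0.00189, n = 3 arrays per group), and the adjusted p was 0.205 after centring. For Prkcd the values were −0.00 at 4 h and 0.25 at 2 h, a difference of −0.26 (95% interval −0.39 to −0.12, adjusted p = 0.0333). The Prkcd value did not pass after centring (0.145), with the replicate number as a block (0.0665) or without any of 11 of the 12 arrays in the comparison (0.0538 to 0.0949).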

How the results depend on the processing

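Over 1050 gene values under 25 alternatives, 989 kept their direction and their call, and changes in the adjusted p alone are counted separately. The filter on low genes, averaged probe sets and no fold limit could not change the fold changes of these genes. Dropping the fold limit changes the call rule itself and gave the 36 values that gained a call. The 989 is therefore a count and not a measure of robustness. The count of the 7 genes called at 2 h of curdlan was 1 instead of 2 under repeated quantile normalization, array weights (whose estimation stopped before convergence) and without both outlying arrays, and 1 to 2 when single arrays were left out, because Bcl10 dropped under 1.5-fold (0.57, 0.55 and 0.55). The Bcl10 call at 4 h was lost under repeated quantile normalization (0.57). With no fold limit the counts for curdlan were 5 at 2 h, 7 at 4 h and 5 between the times, for FK506 over curdlan 4 and 5, for FK506 over nontreated cells 6 and 7, between the times with FK506 4, and for the difference of FK506 effects 2.

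The adjusted p was lost in 52 values and gained in 6. Centring every array on its median left 3 genes past the adjusted p at 2 h of curdlan, 3 for FK506 at 4 h, 2 between the times with FK506 and 0 for the difference of FK506 effects. For FK506 at 2 h over nontreated cells, 4 instead of 6 genes passed after centring and 4 in the fit on the groups compared. Centred, Syk (adjusted p = 0.206) and Card9 (0.112) no longer passed at 2 h of curdlan, and Vav1 did not pass at 4 h under repeated quantile normalization (0.135). Centring also moved the split of all genes called at 4 h of curdlan to 1300 up and 545 down, beside 1007 and 828. Leaving out single arrays gave 2 to 3 genes between the times with FK506 and 1 to 2 for the difference of FK506 effects.

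Whether replicate numbers pair the arrays was not settled, because the deviations of the arrays within a group depend on each other. Same-numbered arrays of different groups had correlated deviations of −0.727 to 0.584 (median 0.017 over 30 pairs), and 8 of 15 arrays correlated best with their own number. With the replicate number as a block, 1 gene instead of 2 passed the adjusted p for the difference of FK506 effects (Prkcd, adjusted p = 0.0665), Vav1 between curdlan 4 h and 2 h and Prkcd between the times with FK506 no longer passed (0.0804 and 0.0818), and no fold-limited call changed.

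Values that changed sign, 20 in all, had no adjusted p under 0.05 and a size of at most 0.0469. Under repeated quantile normalization these were Ptpn6 at 2 h of curdlan (−0.028), Prkcd with FK506 at 4 h (0.00027), Bcl10 (−0.0042) and Malt1 (−0.027) between curdlan times, and Bcl10 between FK506 times (0.025) and in the difference of FK506 effects (0.029). Under array weights they were Prkcd with FK506 at 4 h (0.0067), Malt1 between curdlan times (−0.047) and Bcl10 between FK506 times (0.0020). Malt1 between curdlan times was −0.044 without both outlying arrays, and Ptpn6 in the difference of FK506 effects was −0.011 after centring. With single arrays left out, the ranges that cross 0 were −0.0044 to 0.048 for Ptpn6 at 2 h of curdlan, −0.019 to 0.015 for Prkcd with FK506 at 4 h, −0.0025 to 0.063 for Bcl10 and −0.044 to 0.042 for Malt1 between curdlan times, −0.024 to 0.028 for Bcl10 between FK506 times, and −0.067 to 0.0038 for Bcl10 in the difference of FK506 effects. The causes were not tested.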
